A study of Mus musculus with 6 samples.

Results

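The anticoagulant and fibrinolysis genes are the 9 mouse genes Proc, Pros1, Proz, Serpinc1, Serpind1, Serpinf2, Plg, Hrg and Cpb2, chosen by name from 54532 gene identifiers measured in liver. They were followed in 6 RNA-seq libraries from untreated mice: 3 labelled Arid2 LKO (Arid2 liver specific KO) and 3 labelled Arid2 WT. ARID2 is a subunit of the PBAF chromatin remodelling complex, and the series title sets it beside hepatic steatosis and the kinase JAK2. The sources used here give no strain, age or Cre line for the deletion. Nor do the labels tie libraries to individual animals, so a p-value reflects only how much these libraries differ, which may be technical. The values are FPKM, which count reads relative to exon length and to a scale for each library.

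Blood clotting is held in check by liver proteins of several kinds. Protein C, activated at the endothelial surface, cleaves activated clotting factors V and VIII with protein S as its cofactor, and protein Z helps a serpin (a suicide-substrate protease inhibitor) to inhibit factor Xa. The serpins antithrombin and heparin cofactor II inhibit thrombin, antithrombin other clotting proteases as well. Fibrin is dissolved by plasmin, made from plasminogen, and antiplasmin, carboxypeptidase B2 and histidine-rich glycoprotein modulate that step. Hepatocytes are the main source of most of these proteins, and protein S is also made by endothelial and other cells.

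All 6 libraries carried high hepatocyte transcripts. The summed level of 10 hepatocyte markers (Alb, Apoa1, Ttr and others) ran from 50489 to 67178 FPKM in LKO libraries and from 45102 to 59077 FPKM in WT libraries. Alb weighed most in this sum, with a mean of 33130 FPKM. Of the 10, 2 lay above WT in every LKO library, beside 8.0% of all genes tested. These were Hnf4a (144, 190 and 107 FPKM in LKO, against 103, 100 and 94.9 FPKM in WT) and Tat (836, 1027 and 1574 FPKM, against 482, 451 and 801 FPKM). Reads recovered from the steps of the FPKM values summed to 13947786 to 18159285 per library. The library scale that the steps imply ran from 12704100 to 19279600 and departed from these sums, in opposite directions in the libraries numbered 1: below the sum in LKO (12704100 against 13947786) and above it in WT (19279600 against 16889737). The libraries numbered 1 stood apart, with 2368 genes (LKO) and 2003 genes (WT) at 1 to 5 reads, against 3913 to 4263 genes in the other 4 libraries. Reads from the mitochondrial genome made up 27.6%, 7.72% and 4.76% in LKO replicates 1 to 3, and 20.7%, 10.2% and 18.5% in WT replicates 1 to 3. Arid2 itself did not separate the groups (2.55, 1.33 and 2.04 FPKM in LKO, against 2.65, 1.74 and 1.79 FPKM in WT; limma adjusted p = 0.974), and since the values sum over the whole gene, the deletion could not be checked. LKO therefore stands for the libraries so labelled.

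None of the 9 genes passed the threshold of the fit over all genes. The 3 vitamin K-dependent genes among the 9, Proc, Pros1 and Proz, were lower in every LKO library than in any WT library. The antiplasmin gene Serpinf2 was higher. Over all genes tested, 15.4% did not overlap in this way (7.42% lower and 8.0% higher in LKO). Pros1 was the furthest apart, with a WT mean 4.14 times the LKO mean. The other 5 genes overlapped between the groups, and Serpinf2 also did once libraries were rescaled to equal sums of recovered reads. The fit was limma-trend on log2(FPKM + 1) over the 11672 genes that averaged 0.5 FPKM or more, all 9 among them, with Benjamini-Hochberg adjustment at 0.05. It called 0.0428% of all genes, 1 higher (0.00857%) and 4 lower (0.0343%) in LKO (0 higher and 3 lower with quantile normalization). At an unadjusted p under 0.05 it held 1 of the 9 genes, against 9.22% of all genes. Voom on the recovered reads called 0 of the 9, and limma with array quality weights called 1, Pros1.

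**Figure D1:**
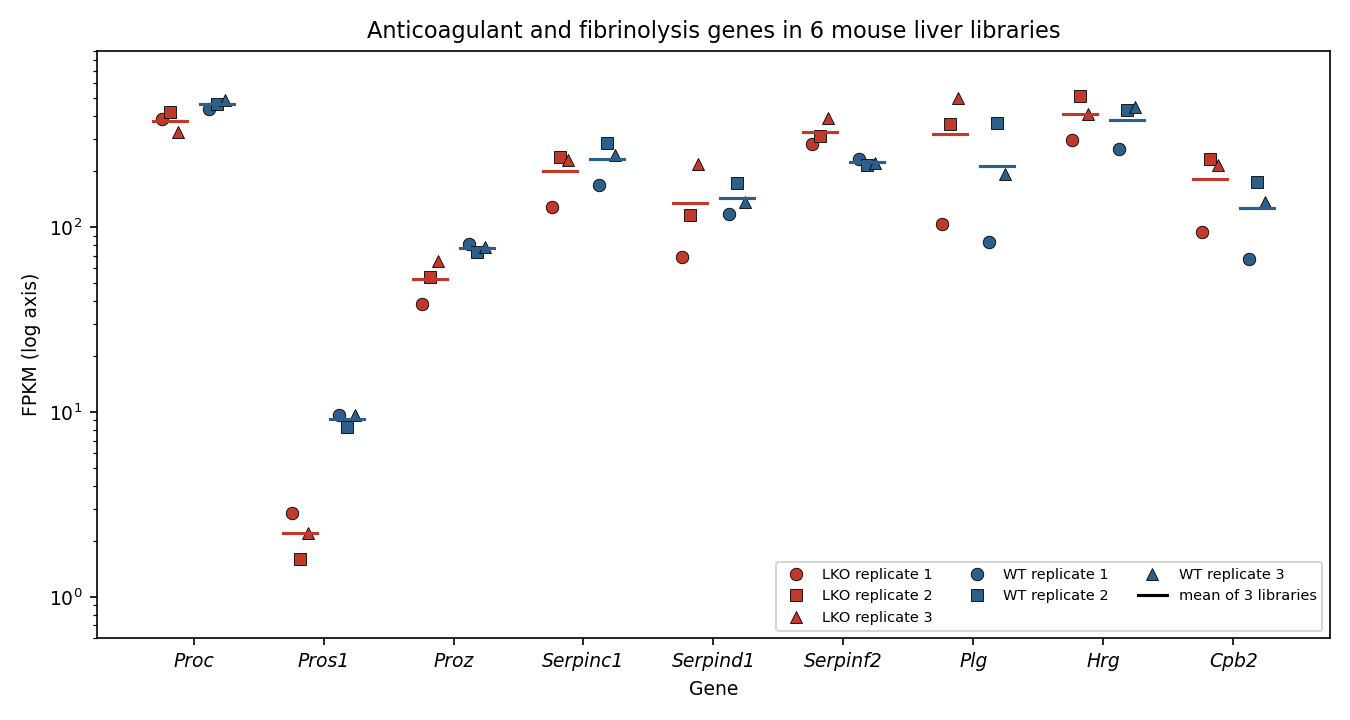
FPKM of the 9 genes on a log axis in each library, LKO (red) left of WT (blue), with a marker shape per replicate number and a bar at the mean of 3 libraries. Pros1 lies between 1.61 and 2.85 FPKM in LKO and between 8.29 and 9.67 FPKM in WT, while the circles of replicate 1 are low in both groups for Plg and Cpb2.

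Pros1 encodes protein S, the cofactor of activated protein C and a ligand of the receptor tyrosine kinases TYRO3, AXL and MERTK (ENSMUSG00000022912, mm10 chromosome 16, 62854307 to 62929346, plus strand). LKO replicates 1 to 3 had 2.85, 1.61 and 2.20 FPKM of Pros1 (148, 103 and 171 reads). WT replicates 1 to 3 had 9.67, 8.29 and 9.65 FPKM (762, 596 and 616 reads). The groups did not overlap, and the gap between them was wider than the spread within either. The mean was 2.22 ± 0.619 FPKM in LKO and 9.20 ± 0.791 FPKM in WT (SD, n = 3 each). On the log2(FPKM + 1) scale the LKO minus WT difference in the limma fit was -1.68 (SE 0.24, 95% interval -2.24 to -1.12, limma adjusted p = 0.131), and the sign was negative under each of 16 settings. An exact permutation test of 3 against 3 libraries cannot go below p = 0.1, which is the value Pros1 reached. Any gene whose groups do not overlap reaches it, here also Proc, Proz and Serpinf2, so it restates that Pros1 did not overlap. Only 13 of the 11672 genes had a smaller unadjusted limma p than Pros1 (1.57e-04).

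Cells other than hepatocytes also express Pros1. Summed levels of 6 sinusoidal endothelial markers ran from 12.4 to 32.1 FPKM in LKO and from 20.8 to 29.97 FPKM in WT. LKO replicates 2 and 3 (12.4 and 12.96 FPKM) lay under every WT sum, so the overlap came from LKO replicate 1. That library had the highest of the 6 sums (32.1 FPKM). Of the 6 markers, 5 had a fitted difference below 0 (median -0.17, smallest limma adjusted p = 0.766), beside 5362 of the 11672 genes tested. For 6 Kupffer cell markers the sums were 12.7 to 38.7 FPKM in LKO and 13.1 to 37.9 FPKM in WT, and for 5 platelet and megakaryocyte markers 1.39 to 5.06 FPKM in LKO and 1.60 to 3.06 FPKM in WT. Of these 17 markers, none had LKO and WT libraries that did not overlap, beside 15.4% of all genes tested. The platelet marker Gp1bb was at 0 in all 6 libraries. The sums also overlapped for 6 stellate cell markers (21.8 to 30.7 FPKM in LKO, 20.8 to 28.4 FPKM in WT), 5 biliary markers (7.06 to 28.3 FPKM in LKO, 10.3 to 18.1 FPKM in WT) and 5 erythroid markers (91.2 to 149 FPKM in LKO, 139 to 330.05 FPKM in WT). All 5 erythroid markers had a fitted difference below 0, and Alas2, the erythroid heme synthesis enzyme, did not overlap. Alas2 had 1.77, 3.62 and 5.70 FPKM in LKO replicates 1 to 3, against 13.04, 44.1 and 25.8 FPKM in WT replicates 1 to 3 (log2 difference -2.54 ± 0.50 SE, limma adjusted p = 0.183), a larger difference than that of Pros1 and in the same direction. The summed level of 5 neutrophil markers was higher in every LKO library, but only just. LKO replicate 3 was at 2.846 FPKM, against 2.822 FPKM in WT replicate 3. These markers were low, and Ly6g was at 0 in all 6 libraries. The part of endothelial, erythroid and neutrophil cells in the Pros1 difference was not tested. In whole liver RNA, fewer cells of a type and less RNA per cell cannot be told apart.

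The promoter windows of Pros1, Proz and Serpinf2 are shown because the groups did not overlap for these genes. The groups did not overlap for Proc either, but its window was not used here. Each runs from 250 bases before the RefSeq start to 50 bases after it (GRCm38.p6), 5′ to 3′ on the strand of the gene, at chr16:62854057-62854356 (plus), chr8:13060658-13060957 (plus) and chr11:75439452-75439751 (minus).
Pros1: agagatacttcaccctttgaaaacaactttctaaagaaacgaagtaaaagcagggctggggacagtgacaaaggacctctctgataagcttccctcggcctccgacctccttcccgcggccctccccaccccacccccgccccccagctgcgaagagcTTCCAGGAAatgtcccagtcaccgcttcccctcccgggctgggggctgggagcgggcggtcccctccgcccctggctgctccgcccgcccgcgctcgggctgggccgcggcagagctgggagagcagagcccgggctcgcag
Proz: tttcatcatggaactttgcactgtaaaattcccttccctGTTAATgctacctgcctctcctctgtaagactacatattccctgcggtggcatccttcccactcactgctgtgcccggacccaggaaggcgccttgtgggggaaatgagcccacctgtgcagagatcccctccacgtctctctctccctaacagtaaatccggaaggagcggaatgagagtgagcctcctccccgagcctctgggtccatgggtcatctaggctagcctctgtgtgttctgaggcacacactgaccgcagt
Serpinf2: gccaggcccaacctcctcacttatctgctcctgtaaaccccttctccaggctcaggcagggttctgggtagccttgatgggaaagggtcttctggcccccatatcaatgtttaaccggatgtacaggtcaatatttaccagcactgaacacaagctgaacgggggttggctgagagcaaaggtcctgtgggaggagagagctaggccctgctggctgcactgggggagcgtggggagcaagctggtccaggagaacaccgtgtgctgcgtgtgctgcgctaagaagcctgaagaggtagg
Capitals mark matches to 5 motifs searched on both strands, which are TTCNNNGAA (STAT), GTTAAT (an HNF1 core), CAAAGTCCA (HNF4), TTGCNNAA (C/EBP) and TGTTTAC (FOXA); no matches overlapped. Pros1 held a STAT-type match at bases -92 to -84 from the start, and Proz held a GTTAAT match at bases -211 to -206. Serpinf2 held none of the 5. A STAT-type match was found in 8.30% of 32851 such windows, and GTTAAT in 7.10%. The other 3 motifs were found in 0.475% (HNF4), 10.8% (C/EBP) and 3.65% (FOXA) of windows. Of the 7 genes with a window used here, Serpinc1, Hrg and Cpb2 each held a C/EBP-type match, and no window held the HNF4 or FOXA letters. Variants of these letters were not searched, so the absence of a match does not show the absence of a site. GC content was 66.7% in the Pros1 window, 55.3% in that of Proz and 57.3% in that of Serpinf2, against a median of 52.7% over all windows; among the 7 genes it was lowest in Hrg (36.7%).

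Proc encodes protein C, the zymogen of the anticoagulant protease (ENSMUSG00000024386, chromosome 18, 32123126 to 32139570, minus strand). In LKO replicates 1 to 3 Proc had 384, 417 and 325 FPKM. The WT libraries had 434, 462 and 489 FPKM. The LKO values all lay under the WT values, but the lowest WT and highest LKO values were close together. The mean was 375 ± 46.4 FPKM in LKO and 461 ± 27.4 FPKM in WT (SD, n = 3 each; log2 difference -0.30 ± 0.30 SE, 95% interval -1.01 to 0.40, limma adjusted p = 0.834). FPKM of Proc times its GENCODE vM21 exon length did not give whole reads, so its read counts are not given.

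Proz encodes protein Z, a Gla-domain protein without protease activity (ENSMUSG00000031445, chromosome 8, 13060914 to 13076026, plus strand). LKO replicates 1 to 3 had 38.4, 53.7 and 65.4 FPKM of Proz (2708, 4661 and 6897 reads). WT replicates 1 to 3 had 81.3, 73.6 and 77.6 FPKM (8696, 7184 and 6729 reads). LKO libraries were spread and all lay under the tight WT group. The mean was 52.5 ± 13.5 FPKM in LKO and 77.5 ± 3.85 FPKM in WT (SD, n = 3 each; log2 difference -0.58 ± 0.30 SE, 95% interval -1.29 to 0.12, limma adjusted p = 0.625). Without both libraries numbered 1 the difference was -0.35.

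Proz is the last of 3 coagulation genes that follow each other on the plus strand of chromosome 8, F7, F10 and Proz, with 1498 bases between F7 and F10 and 4237 bases between F10 and Proz. F10, which encodes factor X, was at 112, 173 and 160.25 FPKM in LKO, against 148, 228 and 208 FPKM in WT (log2 difference -0.39 ± 0.34 SE, limma adjusted p = 0.803). F7, which encodes factor VII, was at 16.4, 45.7 and 52.6 FPKM in LKO, against 72.5, 59.5 and 48.3 FPKM in WT (log2 difference -0.78 ± 0.47 SE, limma adjusted p = 0.692). All 3 neighbours had a fitted difference below 0, but F7 and F10 overlapped between the groups. In LKO replicate 1, all 3 were at their lowest.

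Rescaled to equal sums of recovered reads, Proc, Pros1 and Proz still did not overlap. Serpinf2 did, since LKO replicate 1 (256 rescaled FPKM) then lay under WT replicate 1 (265 rescaled FPKM).

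The heparin-dependent serpins overlapped between the groups. Serpinc1 encodes antithrombin, the main inhibitor of thrombin and factor Xa (ENSMUSG00000026715, chromosome 1, 160978585 to 161005863, plus strand). Its FPKM values were 128, 239.9 and 232 in LKO replicates 1 to 3, against 170.05, 286 and 247 FPKM in WT replicates 1 to 3. Replicate 1 was the lowest of each group. The log2 difference was -0.25 ± 0.39 (SE; 95% interval -1.15 to 0.65, limma adjusted p = 0.907), and it turned to 0.044 without LKO replicate 1. The gene Zbtb37 overlaps the 3′ end of Serpinc1 on the other strand, and no source used here says whether reads were counted by strand.

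Serpind1 encodes heparin cofactor II, which inhibits thrombin in the presence of dermatan sulfate or heparin (ENSMUSG00000022766, chromosome 16, 17331371 to 17343575, plus strand). LKO replicates 1 to 3 had 68.6, 117 and 218 FPKM of Serpind1 and hold both the lowest and the highest of the 6 values. In WT replicates 1 to 3 it was at 118, 174 and 137 FPKM. The LKO SD of 76.5 FPKM was more than the whole WT range (log2 difference -0.23 ± 0.46 SE, 95% interval -1.30 to 0.84, limma adjusted p = 0.930). The difference was 0.18 without LKO replicate 1, -0.65 without LKO replicate 3 and 0.048 without both libraries numbered 1, so its sign rests on single libraries. Serpind1 lies wholly within the gene Pi4ka, which runs on the other strand.

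Among the fibrinolysis genes, Serpinf2 was the one that separated the groups, though not once libraries were rescaled to equal sums of recovered reads. It encodes alpha 2-antiplasmin, the main plasma inhibitor of plasmin (ENSMUSG00000038224, chromosome 11, 75431732 to 75439591, minus strand). LKO replicates 1 to 3 had 281, 312 and 391 FPKM of Serpinf2 (8298, 11338 and 17262 reads). WT replicates 1 to 3 had 232, 218 and 223 FPKM (10417, 8897 and 8088 reads). The WT libraries lay close together and every LKO library was above them. The mean was 328 ± 56.7 FPKM in LKO and 224 ± 7.55 FPKM in WT (SD, n = 3 each; log2 difference 0.53 ± 0.30 SE, 95% interval -0.17 to 1.23, limma adjusted p = 0.656).

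Plg encodes plasminogen, the zymogen of plasmin (ENSMUSG00000059481, chromosome 17, 12378608 to 12419385, plus strand). It was the most variable of the 9 genes, at 103, 359.9 and 499 FPKM in LKO replicates 1 to 3, against 83.0, 366 and 194 FPKM in WT replicates 1 to 3. Both libraries numbered 1 were the lowest of their group. The log2 difference was 0.55 ± 0.73 (SE; 95% interval -1.17 to 2.27, limma adjusted p = 0.891). Leaving out single libraries moved it to 1.22 (LKO replicate 1), 0.33 (LKO replicate 2), 0.095 (LKO replicate 3), -0.0068 (WT replicate 1) and 1.06 (WT replicate 2). The gene Slc22a3 overlaps the 3′ end of Plg on the other strand.

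Cpb2 encodes the carboxypeptidase also known as thrombin-activatable fibrinolysis inhibitor, which removes C-terminal lysines from fibrin and so limits plasminogen binding (ENSMUSG00000021999, chromosome 14, 75242287 to 75283555, plus strand). Its levels were 94.3, 233 and 216 FPKM in LKO replicates 1 to 3, against 67.4, 175 and 137 FPKM in WT replicates 1 to 3. Replicate 1 was again the lowest of each group. Within each replicate number LKO was above WT, but the labels do not say that these numbers pair the samples. The log2 difference was 0.51 ± 0.51 (SE; 95% interval -0.67 to 1.70, limma adjusted p = 0.830). Leaving out single libraries moved it to 0.93 (LKO replicate 1), 0.28 (LKO replicate 2), 0.33 (LKO replicate 3), 0.12 (WT replicate 1) and 0.80 (WT replicate 2).

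Hrg encodes histidine-rich glycoprotein, which binds plasminogen, heparin and fibrinogen (ENSMUSG00000022877, chromosome 16, 22951072 to 22961656, plus strand). The gene had 296, 515 and 411 FPKM in LKO replicates 1 to 3, against 265, 432 and 449 FPKM in WT replicates 1 to 3. The values overlapped almost fully, with means of 407 ± 109 FPKM in LKO and 382 ± 102 FPKM in WT (SD, n = 3 each; log2 difference 0.09 ± 0.38 SE, 95% interval -0.79 to 0.98, limma adjusted p = 0.968). The interval leaves room for a difference in either direction.

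**Figure D2:**
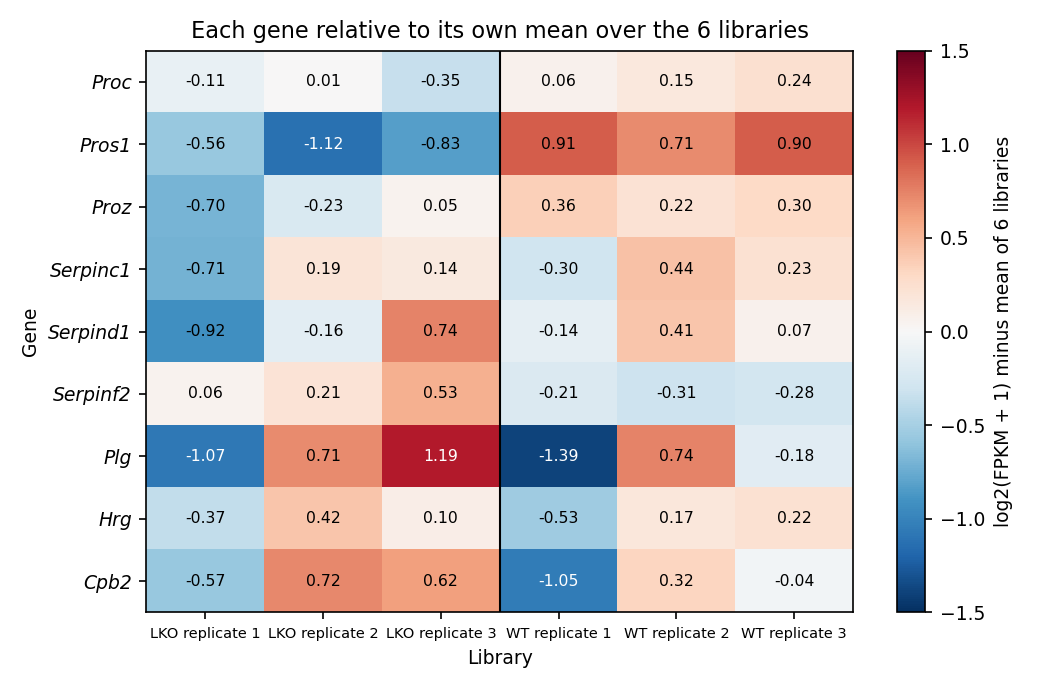
Each of the 9 genes (rows) in each library (columns, LKO left of WT) as log2(FPKM + 1) minus the mean of that gene over the 6 libraries, red above and blue below it. Pros1 is between -1.12 and -0.56 in LKO and between 0.71 and 0.91 in WT, whereas Plg is at -1.07 in LKO replicate 1 and at -1.39 in WT replicate 1.

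The genes thus varied in more than one way across libraries, as the plot of deviations from each mean shows. For Plg, Cpb2, Hrg, Serpinc1 and Serpind1 the replicate 1 library was the lowest of its group in both genotypes. Pros1 did not share this: replicate 1 had the highest Pros1 value of the LKO libraries and of the WT libraries. Within the LKO group, Serpind1, Serpinf2, Plg and Proz were all highest in replicate 3 and lowest in replicate 1. The replicate 1 libraries are also those with few genes at 1 to 5 reads, and the part this plays in the low Plg and Cpb2 values was not tested.

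Levels per kilobase of exon spanned a wide range. Over all 6 libraries Proc (418 FPKM) and Hrg (395 FPKM) had the highest means, followed by Serpinf2 (276 FPKM), Plg (268 FPKM), Serpinc1 (217 FPKM), Cpb2 (154 FPKM) and Serpind1 (139 FPKM). Proz (65.0 FPKM) and Pros1 (5.71 FPKM) came last, and each was below the gene ranked before it in 6 of 6 libraries. Some neighbours in this order did not hold their places. Proc was above Hrg in 1 of 3 LKO libraries and 3 of 3 WT libraries, and Serpinf2 was above Plg in 1 of 3 LKO libraries and 2 of 3 WT libraries. Plg was above Serpinc1, and Cpb2 above Serpind1, in 2 of 3 LKO libraries and 1 of 3 WT libraries. Merged exon lengths ranged from 1629 bases (Cpb2) to 8546 bases (Serpinc1), and a gene with long, little-used exons has a lower FPKM for the same number of transcripts.

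As a list, the 9 genes had a median log2 difference of -0.23, with 4 above 0 and 5 below, beside a median of 0.03 over all genes tested. Without LKO replicate 1 the median of the 9 was 0.18, without WT replicate 1 it was -0.35, and without WT replicate 2 it was -0.077. The values therefore do not give the set a common direction.

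**Figure D3:**
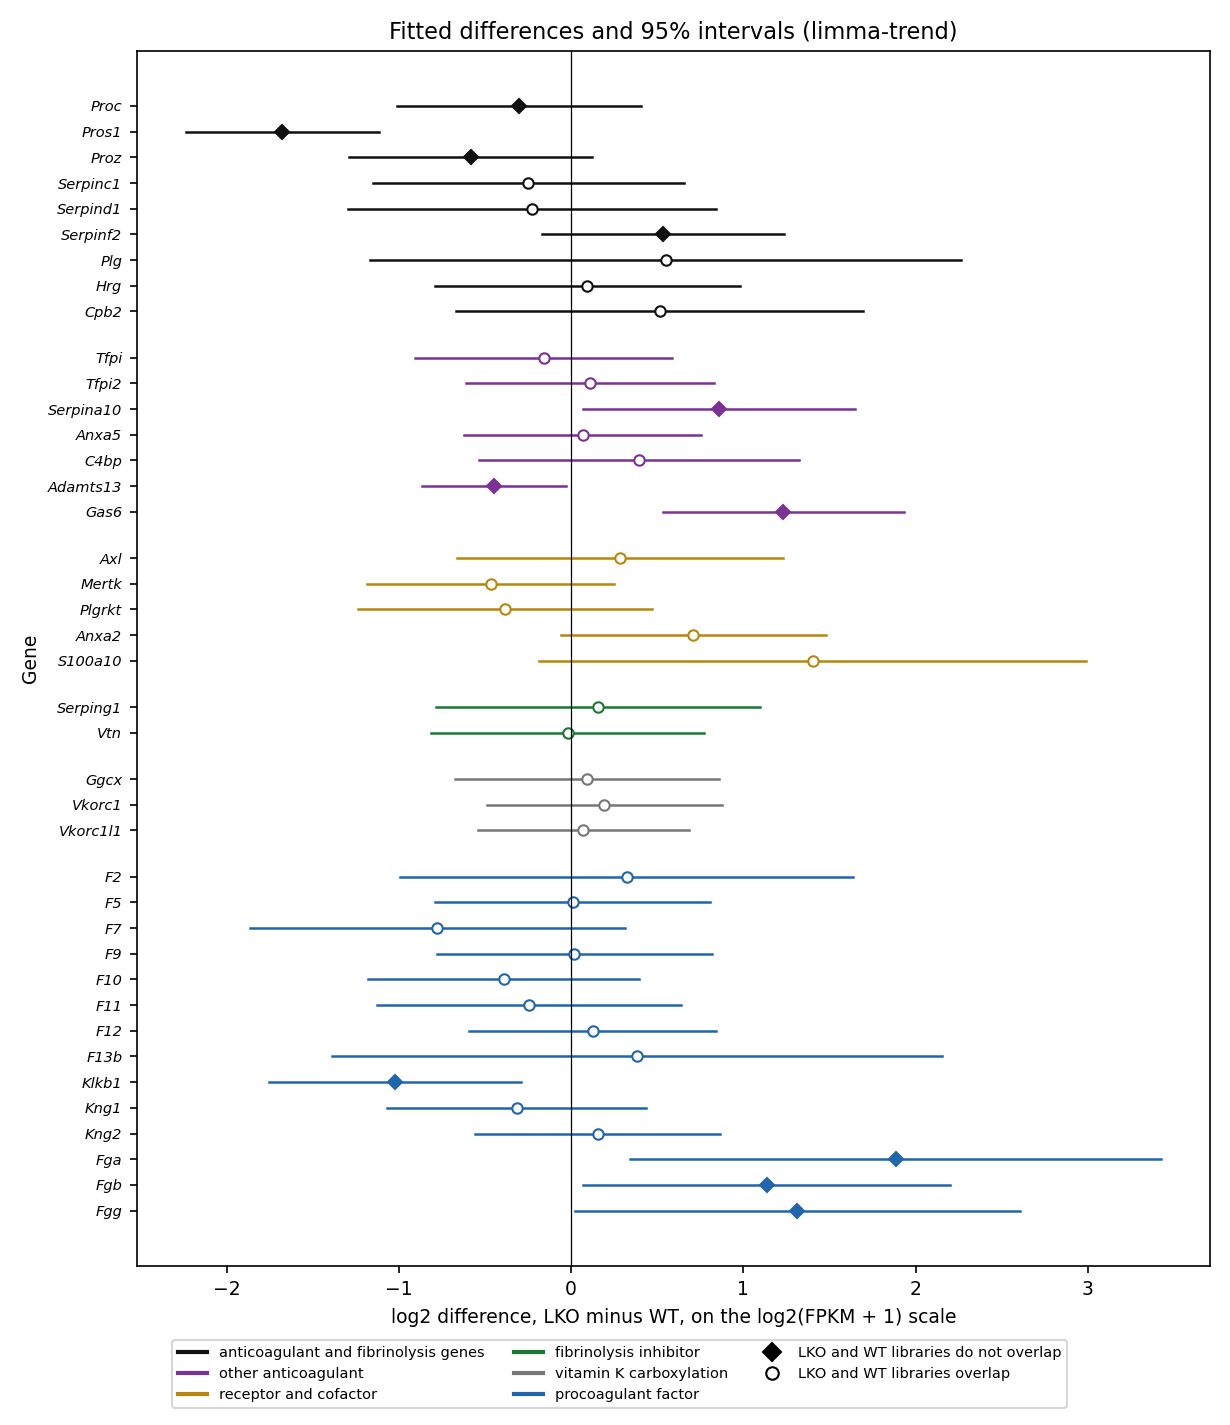
Fitted log2 difference (LKO minus WT, on the log2(FPKM + 1) scale) with its 95% limma interval for each tested gene of the clotting and fibrinolysis lists, coloured by list; filled diamonds mark genes whose LKO and WT libraries do not overlap. Pros1 (-1.68) is the lowest point and Fga (1.88) the highest, and no gene passed the adjusted threshold.

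Around these genes, 29 further genes of the same pathways were examined, of which 17 were tested and 0 were called. At an unadjusted limma p under 0.05 there were 3 of the 17, beside 9.22% of all genes tested. The median log2 difference of the 17 was 0.11, with 12 above 0 and 5 below. Of the 17, Gas6 and Serpina10 lay above WT in every LKO library and Adamts13 lay below, 3 of 17 beside the 15.4% of all genes tested that did not overlap. This share is near that of all genes. Gas6, the closest relative of Pros1 and a ligand of the same receptors, had 22.7, 38.2 and 38.2 FPKM in LKO replicates 1 to 3, against 13.2, 11.6 and 14.7 FPKM in WT replicates 1 to 3. This is the opposite direction to Pros1 (log2 difference 1.23 ± 0.30 SE, 95% interval 0.53 to 1.93, limma adjusted p = 0.261). The gene Tmem255b overlaps the 3′ end of Gas6 on the other strand.

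Serpina10 encodes the protein Z-dependent protease inhibitor, the serpin that protein Z assists. Serpina10 had 78.6, 117 and 59.0 FPKM in LKO replicates 1 to 3, against 48.5, 37.9 and 48.0 FPKM in WT replicates 1 to 3 (log2 difference 0.86 ± 0.34 SE, limma adjusted p = 0.494). All LKO values lay above all WT values, the reverse of Proz. Adamts13, a protease of von Willebrand factor, was at 0.703, 0.494 and 0.524 FPKM in LKO, against 1.27, 1.04 and 1.12 FPKM in WT (log2 difference -0.45 ± 0.18 SE, limma adjusted p = 0.504). The enzymes of vitamin K-dependent carboxylation, Ggcx, Vkorc1 and Vkorc1l1, had differences of 0.09, 0.19 and 0.07 and overlapped between the groups.

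The plasminogen activator genes Plat and Plau stayed under the filter of 0.5 FPKM. Serpine2, which encodes an inhibitor of plasminogen activators and thrombin, was below the filter, with 7, 15 and 4 reads in LKO and 43, 79 and 28 reads in WT. Of the receptors of protein S, Mertk was at -0.47 ± 0.31 (95% interval -1.18 to 0.25) and Axl at 0.28 ± 0.40 (95% interval -0.66 to 1.23; log2 difference ± SE), both overlapping between the groups, and Tyro3 had at most 1 read per LKO library, against 2 to 13 reads per WT library. Thbd and Procr, whose products help activate protein C on endothelium, were both under the filter.

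The procoagulant factors offer the nearest comparison, since hepatocytes secrete most of them too. Of 15 listed, 14 were tested and 0 were called, with a median log2 difference of 0.07, and 9 above and 5 below 0. At an unadjusted limma p under 0.05 there were 4, beside 9.22% of all genes tested. These were Klkb1 and the fibrinogen chain genes Fga, Fgb and Fgg, which lie together on chromosome 3. The same 4 genes did not overlap between the groups, beside 15.4% of all genes tested. The fibrinogen chain genes Fga, Fgb and Fgg were above WT in every LKO library, with means of 1600 ± 852, 1385 ± 738 and 2268 ± 1474 FPKM in LKO, against 482 ± 311, 577 ± 80.2 and 844 ± 331 FPKM in WT (SD, n = 3 each; limma adjusted p of 0.440 for Fga, 0.504 for Fgb and 0.530 for Fgg). Klkb1, the plasma prekallikrein gene, was at 37.0, 29.8 and 31.9 FPKM in LKO, against 93.8, 53.4 and 61.5 FPKM in WT (log2 difference -1.02 ± 0.31 SE, limma adjusted p = 0.365). The sum over 5 neutrophil markers was also higher in LKO, at 2.85 to 12.9 FPKM, against 0.410 to 2.82 FPKM in WT. Of the 5, 2 (S100a8 and Cxcr2) lay above WT in every LKO library, beside 8.0% of all genes tested. Cxcr2 was under the filter, with 12, 17 and 1 reads in LKO and 0 in each WT library. The defining marker Ly6g was at 0 in all libraries, and the part of these cells in the fibrinogen values was not tested. The 4 vitamin K-dependent procoagulant genes overlapped between the groups and lay on both sides of 0. F2, the prothrombin gene, had a log2 difference of 0.32 ± 0.56 (SE), F9 one of 0.02 ± 0.34, F10 one of -0.39 ± 0.34 and F7 one of -0.78 ± 0.47. F10 and F7 were thus further below 0 than Proc (-0.30). When libraries were rescaled to equal sums of recovered reads, F10 lay below WT in every LKO library. So did Kng1, which is not among the 4 vitamin K-dependent genes, and Anxa2 of the receptor and cofactor list then lay above.

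**Figure D4:**
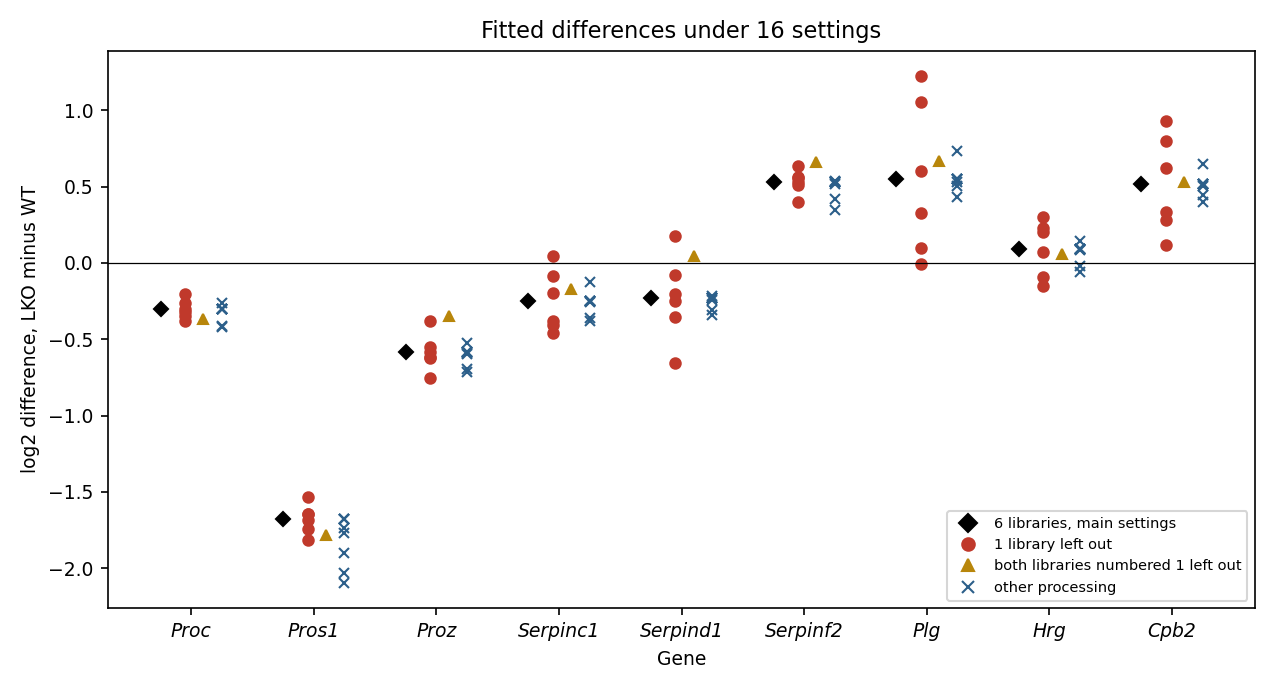
Fitted log2 difference (LKO minus WT) of each of the 9 genes under 16 settings: the main settings, each library left out, both libraries numbered 1 left out, and other processing. Pros1 lies between -2.09 and -1.54 and Serpinf2 between 0.35 and 0.66, while Serpinc1, Serpind1, Plg and Hrg cross 0.

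Among the tested genes outside the 9, those whose profile over the 6 libraries was most like the mean standardised profile of the 9 genes were 1300017J02Rik (Pearson's r = 0.997), Cr1l (0.995), Coq5 (0.995), Slco1a1 (0.993) and Bphl (0.993). Slco1a1 encodes an organic anion transporter and Coq5 an enzyme of ubiquinone synthesis. The mean profile was lowest in LKO replicate 1 (-0.98), then in WT replicate 1 (-0.41), and lay between 0.21 and 0.50 in the other 4 libraries. Slco1a1, as an example, had 16.7, 51.2 and 63.5 FPKM in LKO replicates 1 to 3, against 33.2, 70.1 and 57.2 FPKM in WT replicates 1 to 3. These values of r describe 6 libraries and carry no test.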

How the data were processed

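Liver RNA of 3 LKO and 3 WT samples was prepared with a NEBNext Ultra kit, per the labels' protocols. Per the submitters' processing notes, the build was mm10 and the tools included HISAT2 2.0.5 and featureCounts 1.5.0-p3, beside DESeq2 1.20.0 and CASAVA, with no roles stated; no source used here gives the annotation release, strand setting or filters. The authors deposited 1 table per library with 54532 identifiers and 1 FPKM value each. The unit was read from the values: FPKM times merged exon length in GENCODE vM21 (54495 identifiers matched, all 9 members among them) fell on multiples of 1 step per library, with 96.1% to 96.4% of values above 0 whole within 0.05 read. These recovered reads give the depth. On 1 kb of exon, 3 reads correspond to 0.156 to 0.236 FPKM, which covers counting error only.

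The members and gene lists were chosen with earlier results of these data known. The test was limma-trend with robust empirical Bayes (limma 3.58.1, R 4.3.3) on log2(FPKM + 1), genes averaging 0.5 FPKM or more, genotype as the only term, Benjamini-Hochberg over 11672 genes; log2 differences understate changes of low genes. The fit was tested on simulated data. Named genes were the 9 members, list genes past the threshold or with non-overlapping groups, partners and neighbours chosen for their role, and the 5 genes most like the members' mean profile. A listed gene is not reported here and is in no list count. F7, F10, Mertk, Axl, F2, F9, Kng1, Anxa2, Alas2, Hnf4a, Tat, S100a8 and Cxcr2 were named after their values were seen. Promoters come from RefSeq (GRCm38.p6). Figures used Python 3.11.15, pandas 2.3.3 and matplotlib 3.10.9. Alternatives were another pseudocount (0.1), no filter or one at 1 FPKM, the replicate block, leaving out libraries, 2 other scalings, voom and array quality weights.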

Additional observations from a re-analysis of the deposited data

How the results depend on the processing

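Proc, Pros1, Proz, Serpinf2 and Cpb2 kept their sign under all 15 alternatives, and no member passed the threshold except Pros1 with array quality weights (-1.90, limma adjusted p = 0.00398, against 0.075 to 0.515 with 1 library left out). Those weights also raised the calls over all genes to 621 higher and 574 lower in LKO, with 1 member called, against 1, 4 and 0. No filter gave 0 higher and 1 lower, quantile normalization 0 higher and 3 lower, and leaving out both libraries numbered 1 gave 1 higher and 1 lower. With 1 library left out, 0 to 13 genes were higher and 0 to 4 lower; the median over members ran from -0.35 to 0.18. Without LKO replicate 3 there were 13 higher, and without WT replicate 3 there were 0 in either direction. Hrg turned to -0.022 on rescaling to read sums, -0.058 with quantile normalization, -0.093 without LKO replicate 2 and -0.15 without WT replicate 1 (-0.15 to 0.30 with 1 library left out). With 1 library left out, Plg ran from -0.0068 (without WT replicate 1) to 1.22, Serpinc1 from -0.46 to 0.044 (without LKO replicate 1) and Serpind1 from -0.65 to 0.18 (without LKO replicate 1); Serpind1 was at 0.048 without both libraries numbered 1. The cause was not tested. The labels do not say that replicate numbers pair the samples. The deviations of same-numbered libraries correlated at 0.49, 0.30 and -0.02. Those of LKO replicate 3 and WT replicate 2 correlated at 0.45, and the other differently numbered pairs ran from -0.58 to 0.036. With the replicate block 0 genes were higher and 0 lower, and no member was called. Depth limits Pros1 most, with 103 to 171 reads per LKO library.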

Other observations

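Ratios of FPKM within a library do not depend on the library scale; the pairs here were chosen after their values were seen. The ratio of Gas6 to Pros1, the closely related ligands of TYRO3, AXL and MERTK, was 7.96, 23.7 and 17.4 in LKO replicates 1 to 3, against 1.36, 1.40 and 1.52 in WT replicates 1 to 3. Its lowest LKO value was far above its highest WT value. The ratio of Serpina10 to Proz, a serpin and its cofactor, was 2.05, 2.18 and 0.902 in LKO, against 0.597, 0.516 and 0.618 in WT. The ratio of Proc to Pros1, a protease and its cofactor, was 135, 259 and 148 in LKO, against 44.9, 55.7 and 50.7 in WT. All 3 of these ratios were higher in every LKO library. For Gas6 to Pros1 and Serpina10 to Proz this had to be so. Each numerator lay above WT and each denominator below WT in every LKO library, so these ratios add no separate result. For Proc to Pros1, both genes were lower in LKO, and Pros1 by more. The ranges of both genes within each group already fix this outcome, so this ratio adds no separate result either. By contrast, the ratio of Serpinf2 to Plg, an inhibitor and the zymogen of its target, was 2.72, 0.867 and 0.783 in LKO, against 2.80, 0.594 and 1.15 in WT, and the groups overlapped with both replicate 1 libraries highest. F10 to Proz, adjacent genes, was at 2.90, 3.21 and 2.45 in LKO, against 1.82, 3.10 and 2.67 in WT, and also overlapped.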
